A study of Mus musculus with 4 samples.

Results

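The genes described here are 8 members of the caspase activation machinery: the initiator caspases Casp8 and Casp9, the caspase-8 regulator Cflar, the apoptosome scaffold Apaf1, the inhibitor of apoptosis (IAP) genes Xiap, Birc2 and Birc3, and the IAP antagonist Diablo. They were read on every gene probe outside the array's controls that carries one of these 8 names in the scanner files, which gave 14 of 40628 gene probes (8 of 29353 gene names on the array). RNA came from C3H10T1/2, a mouse embryo fibroblast line, after chemical transformation. The phorone group (2 arrays) was exposed to 2 mM phorone, a ketone known for depleting cells of glutathione, and the control group (2 arrays) consisted of transformed cells labelled as control. Both groups had first received the carcinogen 3-methylcholanthrene (3MC) at 2.5 µg/ml for 2 days, then fresh medium for 4 days, then the phorbol ester tumour promoter TPA at 100 ng/ml for 2 weeks, and then normal medium for 4 weeks. The labels used here give no untransformed cells, no length of the phorone exposure and no vehicle, and they do not state whether replicate samples were separate cultures. The p-values therefore refer to the spread between these samples alone, and that spread may be technical.

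Caspases are proteases that are made as inactive precursors and carry out apoptosis. Death receptors at the cell surface activate caspase-8, and Cflar (c-FLIP), a relative of caspase-8, controls that step. Inside the cell, cytochrome c released from mitochondria binds Apaf1, which assembles into the apoptosome and activates caspase-9. Xiap inhibits caspases directly, Birc2 and Birc3 (the c-IAP proteins) are ubiquitin ligases of tumour necrosis factor receptor complexes, and Diablo (Smac), released from mitochondria, binds IAP proteins and relieves their inhibition. Most of this control acts on the proteins, and the arrays measured RNA.

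On each array between 51.1% and 52.7% of the spots were well above background, and the 75th percentile signal stood at 563 and 572 on the phorone arrays, against 701 and 747 on the control arrays. All values below are log2 signals minus the array's own 75th percentile, so they compare a probe with itself across arrays and not with other probes. All 8 fibroblast markers examined were well above background on all 4 arrays, with a summed linear level of 668 to 701 in phorone cells and 1510 to 1570 in control cells, and the part of this shift in the results below was not tested. Markers of other cell types were mostly not well above background. The leukocyte genes Ptprc and Adgre1 and the endothelial genes Pecam1, Cdh5 and Kdr were not well above background on any array. Neither were the epithelial genes Krt18 and Cdh1, all 3 adipocyte and all 3 muscle markers. The leukocyte markers Cd68 and Cd3e, the epithelial marker Krt8 and the cartilage markers Col2a1 and Sox9 were well above it on all 4. The epithelial marker Epcam and the cartilage marker Acan were well above background on 1 array each. The endothelial marker Tek was well above background on the control arrays only (-3.95 and -3.90, against -7.11 and -6.84 in phorone cells). The summed leukocyte level was 0.526 to 0.719 in phorone cells and 0.292 to 0.319 in control cells. Most of it was Cd68 (log2 -1.25 and -0.68, against -2.31 and -2.15), while Cd3e was similar (-3.51 and -3.70, against -3.77 and -3.69). The summed cartilage level was 1.01 to 1.19 in phorone cells and 7.65 to 8.71 in control cells. Most of that was Col2a1 (-0.44 and -0.12, against 2.69 and 2.92), and Sox9 was lower too (-2.23 and -2.13, against 0.24 and 0.17). The part of these shifts in the results was not tested either. Fewer cells of a type and less RNA per cell cannot be told apart in such bulk samples. Each group occupied a slide row of its own, so an effect of the row cannot be told apart from one of phorone.

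Of the 8 genes, 5 had 1 probe, and Apaf1, Cflar and Xiap had 3, 4 and 2. The probes of these 3 genes are shown because each gene was read on more than 1 probe. The first 30 bases of each 60-base probe, from the scanner files, read 5′ to 3′:
Apaf1 P368696: ggtaaattctttgatgcattcaaattggtt
Apaf1 P417701: aacaaaatcttgtatagggttaaggaaggt
Apaf1 P621991: ccattggaaaacaagacaaatctgggcttc
Xiap P301216: agtatggttgtgtaaaaaatggtcactcgg
Xiap P424893: gaaaccttagacagagaagcattttatagc
Cflar P135491: gactactgtggaaagctttcttttagtctc
Cflar P192071: ctgaagaacatccacagaatagacttgaac
Cflar P226929: gatttgacactgaatgtaacttgagactta
Cflar P326091: ttttttgttttagggtctcactatgtaact
Over their whole length, the 14 probes had between 26.7% and 45.0% G and C. Probes of the same gene, and the Birc2 and Birc3 probes, shared runs of at most 8 bases on either strand, so they read different stretches of sequence. All 3 Apaf1 probes list the same 2 transcripts of the gene, but their descriptions name transcript variant 2 for P368696 and P621991 and transcript variant 1 for P417701. The Cflar probes P135491 and P192071 are also annotated to 2 predicted transcripts each, while P226929 and P326091 list 1 transcript. The files give no genome position for these probes. In the GRCm38.p6 gene table, Casp8 is the next protein-coding gene after Cflar, and Birc3 the next after Birc2. Birc2 and Birc3 each carry both c-IAP names among their synonyms there.

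Most of the machinery showed no called difference with phorone. Of the 14 member probes, 3 were called higher, 1 was called lower and 10 were not called (limma across 24205 gene probes, Benjamini-Hochberg adjusted p below 0.05). Over all tested probes 25.5% were called higher, 20.3% lower and 45.8% in either direction, so the members' share was not above that of the array. The called probes were 2 of Apaf1 and 1 of Xiap, which were higher, and 1 of Cflar, which was lower. None of the 5 genes with a single probe was called. The median log2 difference over the 14 probes was 0.10, against 0.11 over all tested probes. The arrays of the groups did not overlap on 10 member probes, 7 of them higher and 3 lower, where 77.9% of all probes did not overlap (45% higher and 32.9% lower). All 14 member probes passed the filter, which asked that both arrays of a group, phorone or control, be well above background. Of these, 12 were well above background on all 4 arrays, and only the 2 Apaf1 probes among the 12 were called. Xiap P424893 passed through the phorone arrays alone, and Cflar P135491 through the control arrays alone.

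**Figure D1:**
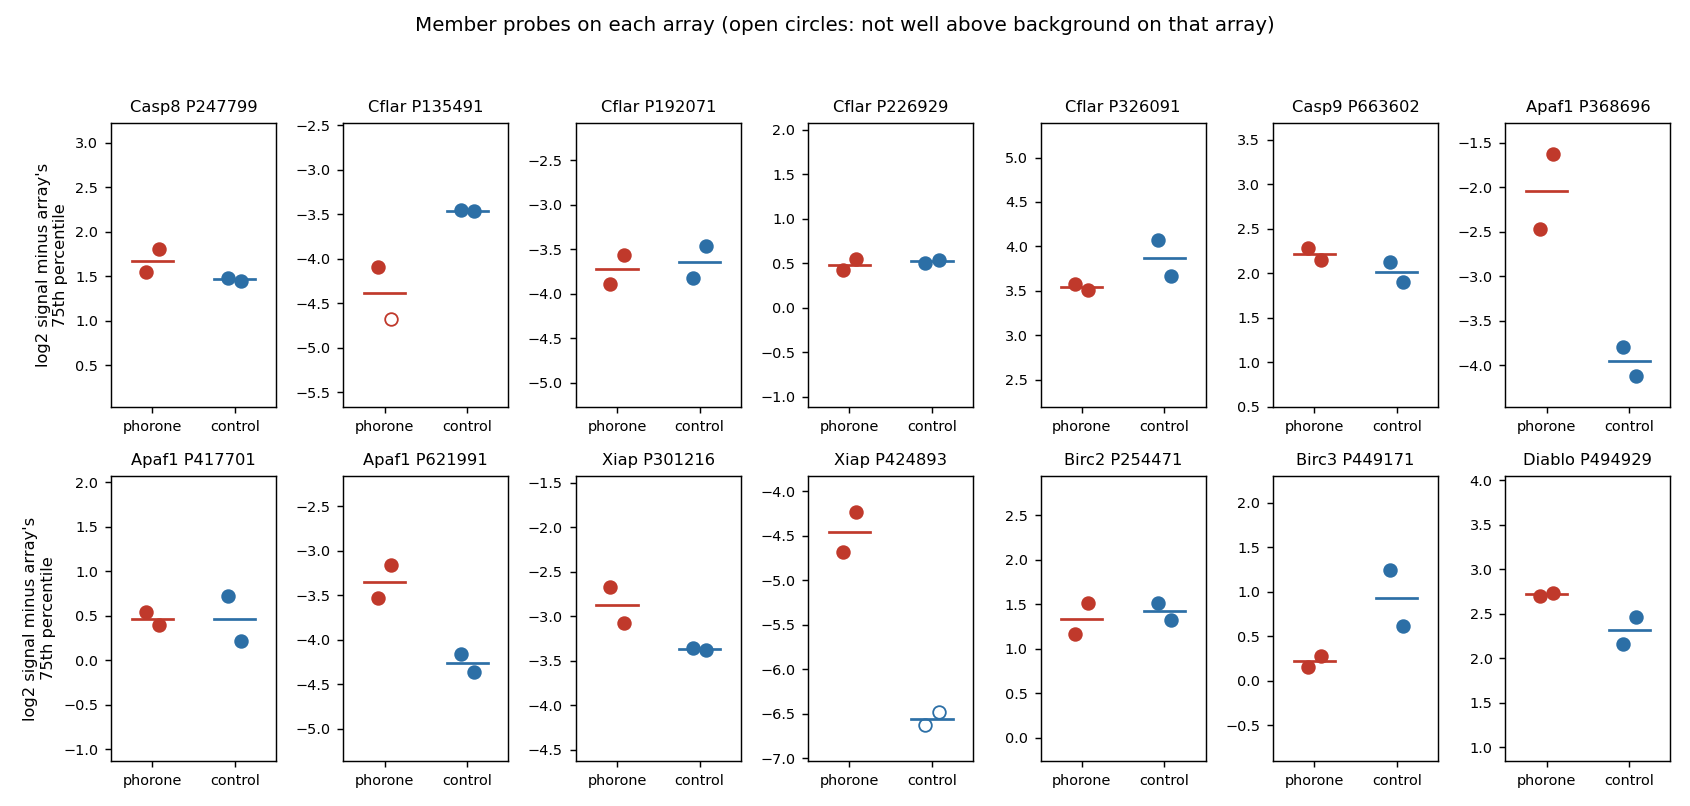
Each panel plots 1 member probe on the 4 arrays, phorone (red) left of control (blue), as log2 signal minus the array's 75th percentile; lines are group means, and every panel spans the same range of log2 units. The groups stand farthest apart on Apaf1 P368696, on Apaf1 P621991, on Cflar P135491 and on Xiap P424893, where both control arrays were not well above background (open circles).

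In the death receptor branch, the initiator Casp8 gave no called difference between the groups. Its probe stood at 1.55 and 1.80 in phorone cells, against 1.48 and 1.45 in control cells. Both phorone arrays lay above both control arrays, but the difference of 0.21 (SE 0.14) was not called (limma adjusted p = 0.283), and its 95% interval ran from -0.16 to 0.58.

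Cflar, whose protein can block or modulate caspase-8 activation, gave 1 called probe of 4. Probe P326091 stood at 3.57 and 3.51 in phorone cells, against 4.07 and 3.67 in control cells. Both phorone arrays were lower, by 0.33 on average (SE 0.17), which was not called (limma adjusted p = 0.179; interval -0.78 to 0.12). Probe P226929 had 0.42 and 0.54 in phorone cells and 0.50 and 0.54 in control cells, a difference of -0.04 with an interval of -0.37 to 0.29. The groups overlapped on this probe, and likewise on P192071, which had -3.89 and -3.56 in phorone cells and -3.82 and -3.46 in control cells (difference -0.08, interval -0.58 to 0.41). Probe P135491 had -4.09 and -4.68 in phorone cells, against -3.46 and -3.47 in control cells. It fell by 0.93 (SE 0.22, limma adjusted p = 0.0234), but it was well above background on only 1 of the 2 phorone arrays. This call was lost under normexp background correction, where the difference was -0.19 (adjusted p = 0.199 in limma), and also under spike-in scaling, with no filter on dim probes, and without phorone replicate 2 (-0.63), control replicate 1 (-0.92) or control replicate 2 (-0.93). When the difference on each dimmer probe was set against that on P326091, none of the 3 contrasts was called (limma adjusted p = 0.185 to 0.661).

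In the mitochondrial branch, the initiator Casp9 gave no called difference either. Its probe had 2.29 and 2.15 in phorone cells, against 2.13 and 1.90 in control cells, with both phorone arrays above both control arrays. The difference of 0.20 (SE 0.15) was not called (limma adjusted p = 0.305; interval -0.17 to 0.58).

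Apaf1, the scaffold that oligomerises on cytochrome c, rose on 2 of its 3 probes. Probe P368696 had -2.47 and -1.63 in phorone cells, against -3.80 and -4.12 in control cells. It rose by 1.91 (SE 0.31, 3.76-fold, limma adjusted p = 0.00742), and every phorone array lay above every control array although the phorone arrays differed by more than the control arrays did. Probe P621991 had -3.53 and -3.17 in phorone cells, against -4.17 and -4.36 in control cells, and rose by 0.91 (SE 0.18, 1.88-fold, limma adjusted p = 0.0128). Arrays sharing a replicate number also share a slide column, and within these columns the differences were 1.33 and 2.49 on P368696 and 0.63 and 1.20 on P621991. The third and brightest probe did not follow. In unscaled intensity its control arrays read 1155 and 870, against 50.5 and 43.0 on P368696 and 39.0 and 36.4 on P621991. P417701, which stood for Apaf1 when a single brightest probe was taken per gene, had 0.54 and 0.39 in phorone cells, against 0.72 and 0.22 in control cells. The groups overlapped, and the difference was -0.002 (SE 0.20, limma adjusted p = 0.993; interval -0.52 to 0.52).

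The unequal behaviour of the Apaf1 probes was itself put to a test that was added after the values had been seen. For each gene with several kept probes, the per-array difference between a probe and the gene's brightest probe was compared between groups by limma over 7174 such differences, of which 21.5% were called. The difference on Apaf1 P368696 exceeded that on P417701 by 1.91 (SE 0.36, limma adjusted p = 0.0332), and the difference on P621991 exceeded it by 0.92 (SE 0.23, adjusted p = 0.0636 in limma), which was not called. Without phorone replicate 2, control replicate 1 or control replicate 2 the first contrast was no longer called (1.42, 1.82 and 2.00; limma adjusted p = 0.0578, 0.0829 and 0.0762), nor was it when no filter on dim probes was set (1.91, adjusted p = 0.0985 in limma). The first contrast was 2.41 without phorone replicate 1. With normexp background correction it was 1.08 and stayed called (limma adjusted p = 0.0354), while that of P621991 was 0.53, not called. The rises on P368696 and P621991 themselves were 1.06 and 0.52 under normexp, both called. In the reported processing the probes' mean gave Apaf1 a rise of 0.94 (limma adjusted p = 0.0161). The call of P621991 was lost without phorone replicate 2 (0.73, adjusted p = 0.0650 in limma) or control replicate 2 (0.82, adjusted p = 0.0547 in limma).

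Among the inhibitors, Xiap, the IAP that binds and blocks caspases directly, gave 1 called probe of 2. Probe P301216 had -2.67 and -3.07 in phorone cells, against -3.36 and -3.38 in control cells. Both phorone arrays were higher, by 0.50 on average (SE 0.17), which just missed the threshold (limma adjusted p = 0.0685). It was called under normexp background correction (0.38, adjusted p = 0.0379 in limma) and when only probes above background on all 4 arrays were fitted (adjusted p = 0.0468 in limma), and stood at 0.30 without phorone replicate 1 (adjusted p = 0.329 in limma). Probe P424893 had -4.69 and -4.23 in phorone cells, against -6.63 and -6.48 in control cells, where it was not well above background on either array. In unscaled intensity this was 21.9 and 30.5 in phorone cells, against 7.09 and 8.35 in control cells. The probe passed the filter through the phorone arrays alone. Its call as higher (limma adjusted p = 0.00172) rests on control values not well above background. Measured group means were -4.46 in phorone cells and -6.56 in control cells, and the size of the change is not known. With the control values replaced by the lowest signal that any probe had while well above background, phorone cells were 1.27-fold higher. That is a rough figure, because a probe not well above background can lie over this signal. The contrast with P301216 was called (1.60, SE 0.32, limma adjusted p = 0.0382), but it rests on control values not well above background. It was 0.18 under normexp (adjusted p = 0.382 in limma) and was also not called without phorone replicate 2 (1.17), without either control replicate (1.51 and 1.68) or with no filter on dim probes (adjusted p = 0.107 in limma).

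Birc2 (c-IAP1) was not called. Its probe had 1.16 and 1.51 in phorone cells, against 1.52 and 1.33 in control cells, with overlapping groups. The difference was -0.09 (SE 0.17, limma adjusted p = 0.703; interval -0.53 to 0.36).

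Birc3 (c-IAP2), known as a target of NF-kB, was lower on both phorone arrays. It had 0.16 and 0.28 in phorone cells, against 1.24 and 0.61 in control cells. The phorone arrays were closer together than the control arrays, and the difference of -0.71 (SE 0.23) narrowly missed the threshold (limma adjusted p = 0.0592; unadjusted interval -1.31 to -0.11). Within slide columns it was -1.09 and -0.33. The call changed with the processing: Birc3 was called lower without control replicate 2 (-1.03, adjusted p = 0.0177 in limma), under normexp (-0.67, adjusted p = 0.0203 in limma) and when fitted among probes above background on all 4 arrays (adjusted p = 0.0343 in limma), but stood at -0.40 without control replicate 1 (adjusted p = 0.102 in limma) and at -0.28 under spike-in scaling (adjusted p = 0.664 in limma).

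Diablo, the mitochondrial antagonist of the IAP proteins, was slightly higher on both phorone arrays. It had 2.70 and 2.73 in phorone cells, against 2.16 and 2.47 in control cells. The groups did not overlap, but the difference of 0.40 (SE 0.15) was not called (limma adjusted p = 0.0870; unadjusted interval 0.01 to 0.80). It was called without control replicate 2 (0.56, adjusted p = 0.0457 in limma) and stood at 0.25 without control replicate 1 (adjusted p = 0.205 in limma).

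**Figure D2:**
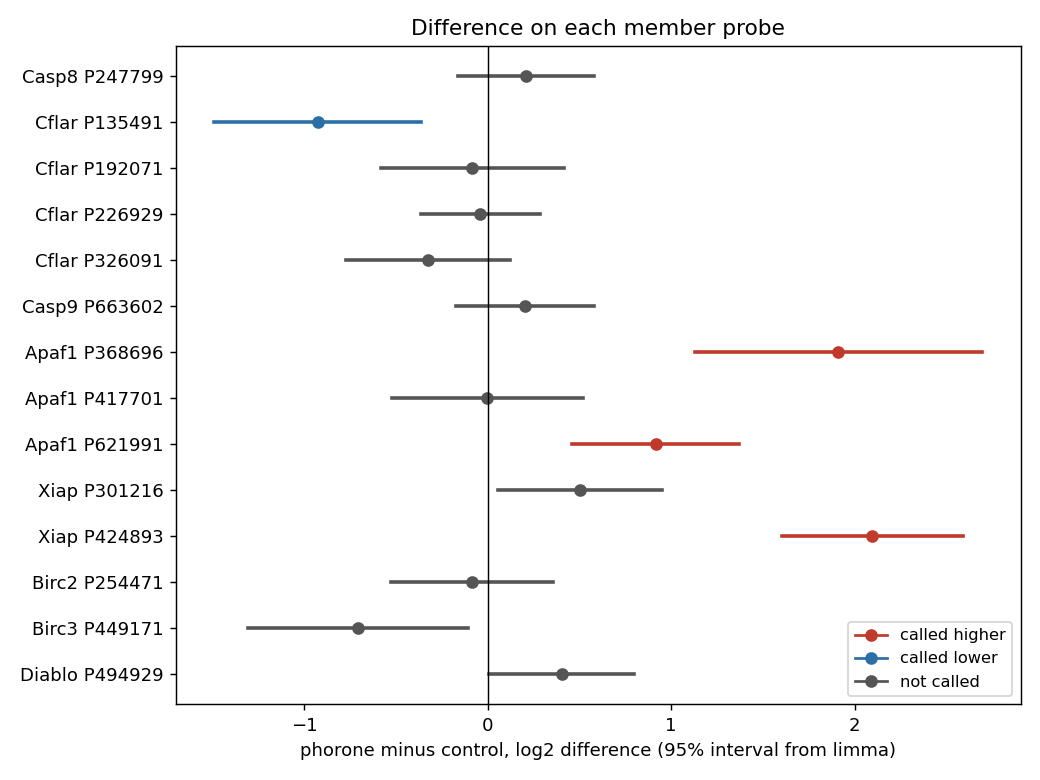
The log2 difference between phorone and control cells (points) is drawn with its unadjusted 95% interval from limma (bars) for each member probe; red marks probes called higher, blue called lower and grey not called. Apaf1 P368696 and Xiap P424893 lie farthest to the right, at 1.91 and 2.10, while Apaf1 P417701 lies at zero. The Xiap P424893 difference rests on control values not well above background.

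Scaling bears on the direction of the small differences. When the arrays were aligned on 7 spike-in controls in place of the 75th percentile, the median of all probes moved up by 0.43. Under it Birc2, Apaf1 P417701 and the Cflar probes P192071, P226929 and P326091 stood at 0.35, 0.43, 0.35, 0.39 and 0.11, above zero in place of below, and none of them was called under either scaling. Apaf1 P368696 and Apaf1 P621991 were called higher under both. Casp8 and Casp9 stood at 0.64 and 0.64 under spike-in scaling, in place of 0.21 and 0.20, and were called under neither.

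**Figure D3:**
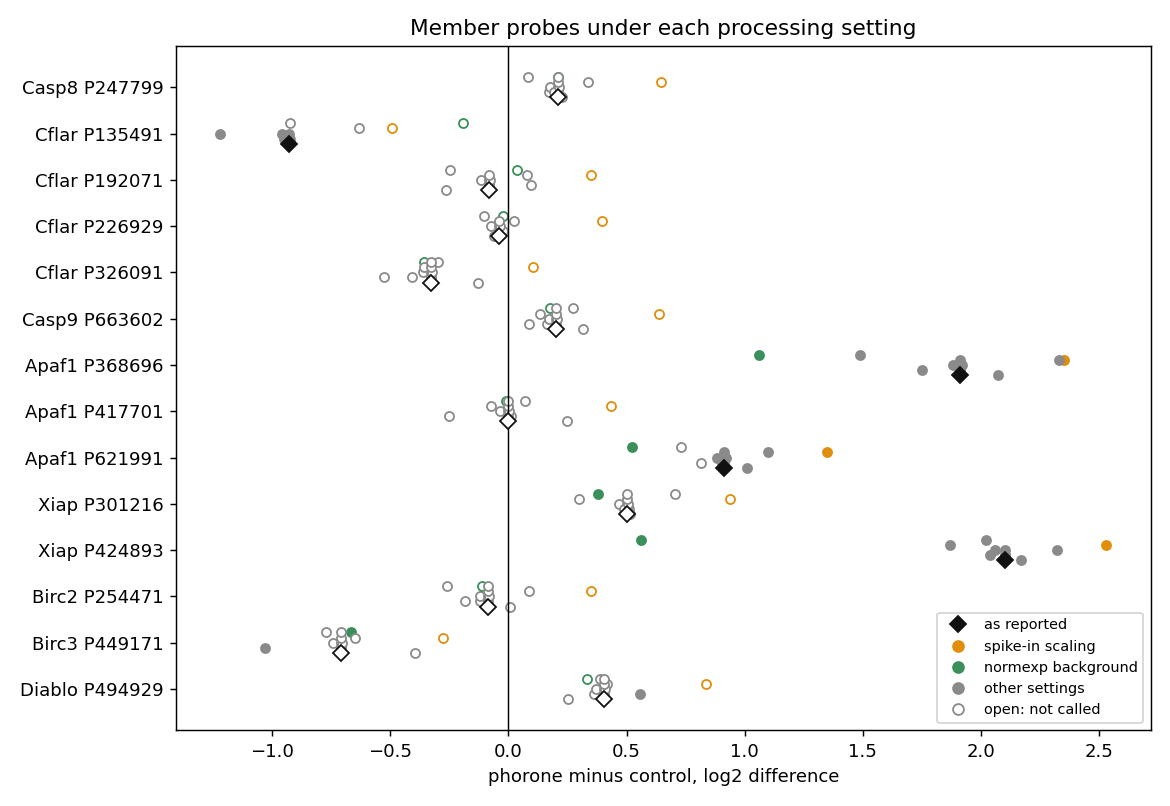
The log2 difference between phorone and control cells is drawn for each member probe under every setting fitted per probe; filled symbols are called and open ones are not. The reported value is the black diamond, orange is spike-in scaling and green is normexp background correction, which brings Xiap P424893 to 0.56 and Cflar P135491 to -0.19.

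The other genes of the pathway were taken from 7 lists by role, each gene read on its brightest kept probe. Of 44 listed genes 38 passed the filter, of which 10 were called higher and 12 lower (median 0.13, against 0.08 over 17031 genes), where 23.8% and 21% of all genes were called higher and lower. Of 22 called genes, 6 kept their call in every alternative that fitted them (Cycs, Septin4, Xaf1, Tnfrsf10b, Aven and Hsp90ab1). Under spike-in scaling 7 were called higher and 3 lower.

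In the list of executioner caspases and their substrates, which act once the initiators are active, 1 of 4 genes was called higher and 0 lower. Casp6, which cleaves nuclear lamins, was not called, with a log2 difference of -0.26 (SE 0.13, limma adjusted p = 0.164). Dffa, the inhibitor of the caspase-activated nuclease, rose by 0.45 (SE 0.13, limma adjusted p = 0.0443), a call lost under 8 of 15 alternatives. Its other probes stood at 0.51, called, and 0.30, not called.

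Among other initiators, adaptors and kinases, 2 of 7 were called higher and 1 lower. Ripk1 and Ripk3, kinases of tumour necrosis factor signalling and necroptosis, rose by 0.91 and 0.71. Ripk1 was not called without phorone replicate 2 (0.85), and Ripk3 was not without either phorone replicate, without control replicate 1 (0.46) or with no filter. Other Ripk1 probes gave 0.56, called, and 0.17, not called. Cradd, the adaptor that joins caspase-2 to Pidd1, had -0.07 and -0.11 in phorone cells, against 1.15 and 1.43 in control cells, and fell by 1.38 (SE 0.15, limma adjusted p = 0.00264), a call lost under spike-in scaling (-0.94, adjusted p = 0.109 in limma). Casp2 itself was not called (0.50), but was without control replicate 1 (0.87).

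Both measured genes of the inflammatory and other caspases were lower. Casp12 had 0.56 and 0.43 in phorone cells, against 2.05 and 1.83 in control cells, and fell by 1.44 (SE 0.15, limma adjusted p = 0.00217). Casp4, the caspase that senses lipopolysaccharide inside the cell, fell by 0.84 (SE 0.12). Neither was called under spike-in scaling (-1.01 and -0.40). Casp1 and Casp14 did not pass the filter.

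Of the other IAP genes, 5 of 7 passed the filter, with 0 called higher and 3 lower. The lower ones were Naip2, Naip5 and Naip6, members of a cluster of similar genes whose proteins sense bacterial components, and whose probes may share signal. Naip5 had -1.09 and -0.98 in phorone cells, against 0.47 and 0.17 in control cells, and fell by 1.35 (SE 0.16, limma adjusted p = 0.00317). Naip2 fell by 0.52. Naip6 was not well above background in phorone cells. It was roughly 1.53-fold lower with its phorone values replaced by the lowest signal well above background. Birc5 (survivin), which acts in mitosis, and the large ubiquitin-conjugating IAP Birc6 were not called, with log2 differences of 0.28 and 0.28. Under spike-in scaling only Naip6 of the 3 was called, under normexp Naip6 was not (-0.15), and Naip2 was not called under 6 of 15 alternatives.

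Mitochondrial death factors and IAP antagonists were divided, with 2 of 7 called higher and 2 lower. Cycs, cytochrome c, had 5.77 and 5.81 in phorone cells, against 4.67 and 4.50 in control cells, and rose by 1.20 (SE 0.13, limma adjusted p = 0.00277), with 0.76 and 0.65 on its other probes, both called. Htra2, a mitochondrial protease that binds IAP proteins as Diablo does, rose by 0.44, a call lost under 10 of 15 alternatives. Septin4, whose ARTS isoform binds Xiap, had -3.48 and -3.76 in phorone cells, against -0.56 and -0.57 in control cells, and fell by 3.05 (SE 0.15, limma adjusted p = 0.000454). Whether its probe reads the ARTS isoform was not tested. Xaf1, an interferon-induced binding partner of Xiap, had -0.54 and -1.34 in phorone cells, against 0.70 and 0.97 in control cells, and fell by 1.77 (SE 0.29, limma adjusted p = 0.00787).

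Death receptors and TRAF adaptors gave 1 call higher and 3 lower of 7 measured. Tnfrsf10b, the mouse receptor of the ligand TRAIL, had 0.20 and 0.19 in phorone cells, against -1.38 and -1.30 in control cells, and its other probes rose by 1.52 and 1.57. Fas, which recruits caspase-8 through Fadd, had 1.63 and 1.92 in phorone cells, against 3.13 and 2.65 in control cells, and fell by 1.11 (SE 0.21, limma adjusted p = 0.0120), and by 0.64 on its other probe, also called. Tnfrsf25 fell by 1.10 (SE 0.28), and both Fas and Tnfrsf25 missed the threshold under spike-in scaling (-0.68 and -0.66). Tnfrsf25 was also not called without either phorone replicate or with no filter. With either phorone replicate left out or no filter, 1 gene of this list was called lower.

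Regulators of the apoptosome gave the most calls upward of the lists, 4 of 6 measured genes higher and 1 lower (median 0.62). Over all genes 23.8% were called higher and 21% lower. Aven, which binds Apaf1 and hinders its assembly, had -0.54 and -0.64 in phorone cells, against -2.37 and -1.90 in control cells, and rose by 1.55 (SE 0.19, limma adjusted p = 0.00381). The chaperone Hsp90ab1 rose by 0.93 (SE 0.13), with 1.19 on its other probe, called. Anp32a (PHAPI), known to promote apoptosome activity, had -0.36 and -0.46 in phorone cells, against 1.02 and 0.64 in control cells, and fell by 1.24 (SE 0.17, limma adjusted p = 0.00514). The other kept Anp32a probe stood at 0.30, not called, and with the mean of both probes Anp32a was not called (-0.47), nor was it under spike-in scaling (-0.81). With either phorone replicate left out, or with no filter, 2 genes of this list were called higher.

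**Figure D4:**
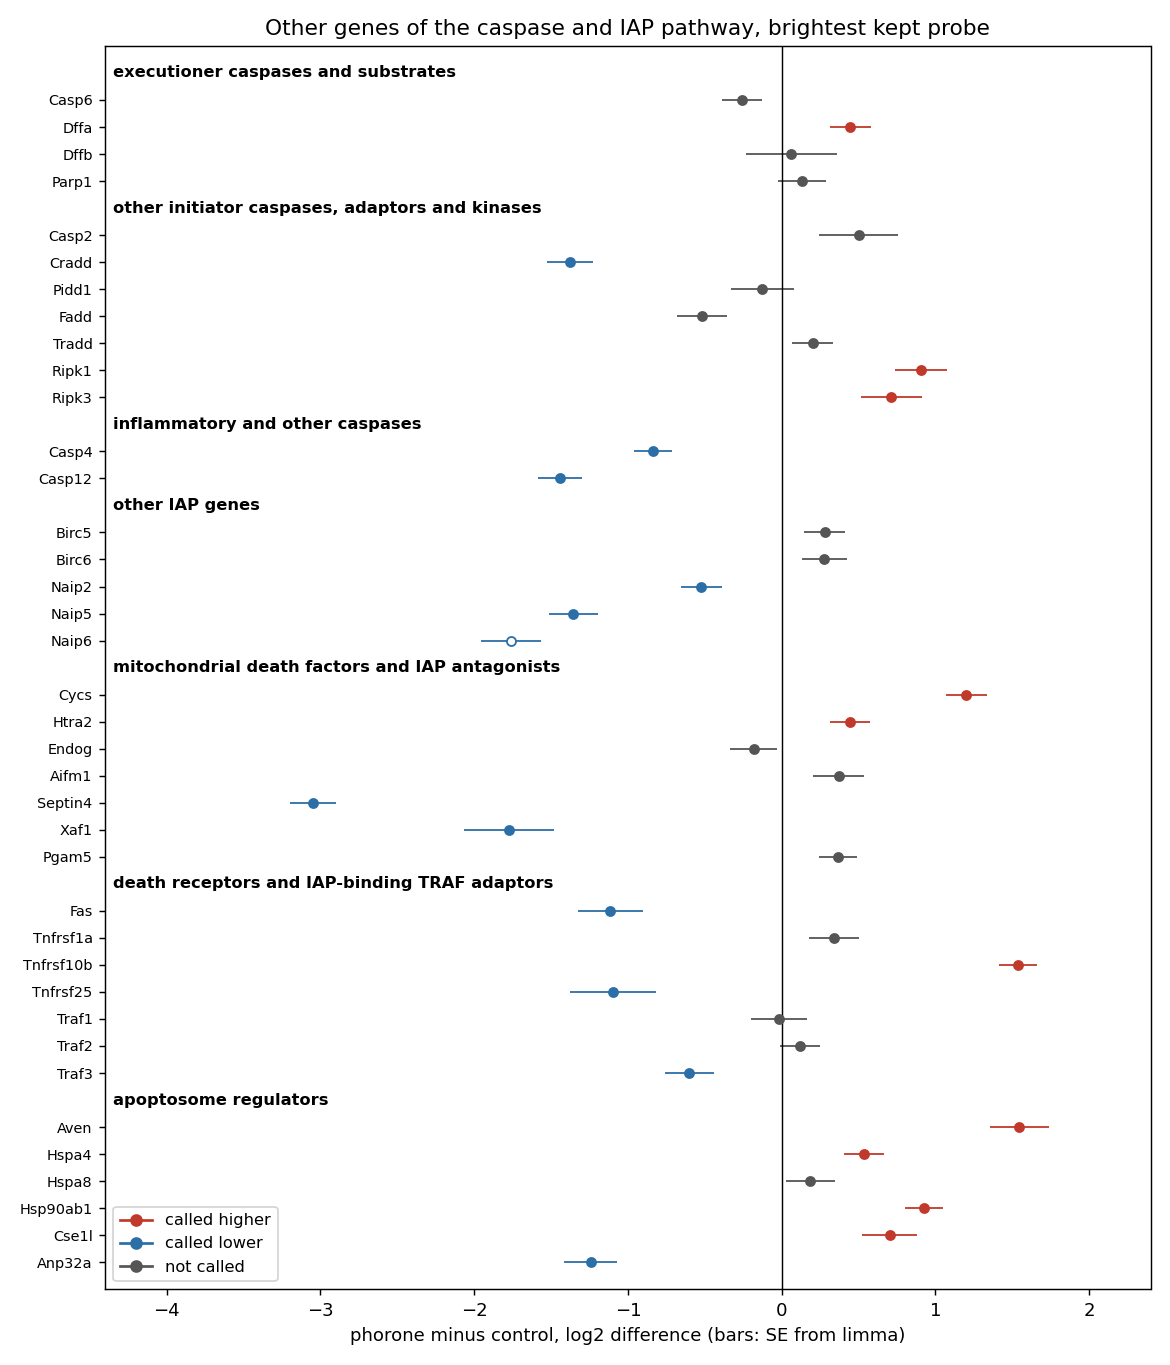
The log2 difference between phorone and control cells (points) with its SE from limma (bars) is drawn for the 38 measured genes of the pathway lists, grouped by role; red is called higher, blue called lower and grey not called. Cycs, Aven and Tnfrsf10b lie farthest to the right and Septin4 farthest to the left, and the open symbol marks Naip6, which was not well above background in phorone cells.

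The genes whose 4 array values, centred on their mean, lay nearest to those of Apaf1 P368696 by Euclidean distance among 15696 genes were Gk (glycerol kinase), Ipo7 (a nuclear import receptor) and the predicted gene Gm6568, at distances of 0.19, 0.22 and 0.25 log2 units. Their log2 differences were 1.96, 1.80 and 2.08. Within a distance of 0.5 there were 56 genes. No member probe that was well above background on all 4 arrays was called lower, so no such neighbours were sought for a fall.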

How the data were processed

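Cy3-labelled cRNA of 4 samples was hybridised to a custom Agilent mouse design. Agilent Feature Extraction 10.7.3.1 produced the deposited intensity values, per the file headers, with background subtracted and detrended within each array and no normalisation between arrays. Log2 values of these probes are also given in a table deposited by the authors, which differed from the scanner values by 1 constant per array (SD at most 0.0223); its column medians were -4.37 and -4.30 (phorone) and -4.39 and -4.35 (control), with the 75th percentile at zero. Precision is limited by there being 2 arrays per group.

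The processed signal was put on the log2 scale and reduced by the array's 75th percentile over 61657 spots outside the controls, spots of a probe were averaged and outlier spots left out (111 probes dropped). Probes were kept where both phorone or both control arrays were well above background. limma 3.58.1 in R 4.3.3 (two-sided, 2 residual and 3.08 prior degrees of freedom) was fitted to 24205 gene probes, without the 20679 noncoding probes. A difference was called at a Benjamini-Hochberg adjusted p under 0.05. The fit was tested on simulated data with few changed probes and large changes only, so recovery of small differences was not tried. Differences are phorone minus control. Gene names followed the RefSeq accession through the GRCm38.p6 gene table (28136 of 40628 gene probes matched) and otherwise the array design. Members and lists were chosen with earlier results of these data known, and 2 genes of the lists are not reported here. Named genes were all member probes, other caspases and IAP genes, and up to 2 called genes each way per list with the largest change. The alternatives were quantile, median and spike-in scaling, normexp (offset 50), no filter or a stricter one, a replicate block, each array left out, the deposited value table, noncoding probes included, and 1 brightest probe or the mean of probes per gene. Same-numbered arrays did not deviate together (r = -0.0408 over probes), so the numbers were not taken as pairs.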

Additional observations from a re-analysis of the deposited data

How the results depend on the processing

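Depth here means signal over background. Xiap P424893 was not well above background on either control array, and Cflar P135491 was not on 1 phorone array. The sizes of their differences depend on the background correction. The 2 called Apaf1 probes were dim as well. Under normexp their rises shrank from 1.91 to 1.06 (P368696) and from 0.91 to 0.52 (P621991). Across the alternatives that fitted them, Apaf1 P368696 (1.06 to 2.35) was called higher each time, and Casp8, Casp9, Birc2, Apaf1 P417701 and the other 3 Cflar probes were never called. Taking the mean of probes in place of the brightest one moved Apaf1 from no difference (-0.002) to a called rise of 0.941, because 2 of its 3 probes rose. Member probes called lower numbered 1 in the reported fit and 0 with spike-in scaling or without a filter; with 1 array left out they ranged from 0 to 1, and those called higher from 2 to 3. The 1 lower probe was Cflar P135491 in the reported fit and Birc3 under normexp, without control replicate 2 or among probes above background on all 4 arrays. Over all probes 6168 were higher and 4917 lower, against 4452 and 1611 with spike-in scaling, or 3823 and 3641 where the filter was dropped; with 1 array left out they ranged from 3310 to 5518 and from 3277 to 4827. Pathway genes called lower numbered 12, but 3 under spike-in scaling, and those called higher 10, but 5 with no filter; with 1 array left out these ranged from 9 to 12 and from 4 to 8. With the replicate block, 5252 probes were higher and 4501 lower, and 3 member probes were higher and 1 lower; same-numbered arrays share a slide column but did not deviate together. The causes of lost calls were not tested.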
